A study of Mus musculus with 4 samples.

Results

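The RNA levels of 10 genes of fatty acid binding, lipoprotein lipid handling, fatty acid synthesis and lipid storage were followed in mouse macrophages with and without RBP-J. They are Pparg, Fabp4, Fabp5, Lpl, Pltp, Apoe, Fasn, Scd1, Scd2 and Plin2, matched by symbol, and all 10 have an entry among the 22026 genes of the tables. The 10 were chosen with earlier results of these data known, so their counts and medians beside all genes are descriptions and not tests. The study measured RNA by sequencing in 4 libraries, 2 per group, of C57BL/6 macrophages grown from bone marrow. The groups were wildtype control (WT) and RBP-J KO with the genotype Rbpj f/f;LysM cre, in which Cre is driven by the lysozyme locus of myeloid cells. The labels do not say whether the controls carry floxed alleles or Cre. Both groups came from mice of 8 weeks, and marrow was grown for 3 days with CMG14-12 supernatant equivalent to 20 ng/ml of M-CSF, the macrophage growth factor. The labels name no separate mice or cultures behind the replicates, so the p-values reflect the spread of these libraries alone. By the sex-linked genes given below, replicate 1 reads as male and replicate 2 as female in both groups. The spread within a group therefore holds a sex difference, and how much of it is technical is not known. The question is how loss of RBP-J alters mRNA levels, RBP-J being a transcription factor that mediates Notch signalling by binding DNA.

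Macrophages take up fatty acids and lipoproteins, carry fatty acids through the cytosol on small binding proteins, make and desaturate new fatty acids, and keep the surplus as neutral lipid in droplets. PPARγ, the product of Pparg, is a nuclear receptor that pairs with RXR, is activated by fatty acid ligands and is known to drive Fabp4, Cd36, Plin2 and Lpl in macrophages and fat cells. LXR receptors, sensors of oxidised cholesterol, are known to drive Apoe, Pltp, Lpl, Scd1 and Fasn, and SREBP factors drive fatty acid and cholesterol synthesis when sterols are short.

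Rbpj, the deleted gene, stood at 355 and 573 FPKM (a level scaled to transcript length and library size) in the WT libraries, against 51.5 and 77 FPKM without RBP-J. Its log2 difference of -2.82 (SE 0.34) had an adjusted p of 0.457 (limma, Benjamini-Hochberg), so the deleted gene itself did not pass the test described below. Pairs of values are given in the order replicate 1, replicate 2, unless labelled otherwise. Of the 8 macrophage markers with an entry, 8 were above 1 FPKM in every library, Csf1r between 2287 and 4705 FPKM, and 3 of the 8 were lower and 2 higher without RBP-J inside both numbers. The lower ones include Cd14, a receptor for bacterial lipopolysaccharide, with WT levels of 1715 and 1569.6 FPKM and knockout levels of 764 and 799.7 FPKM. They also include Lyz2, the locus that carries LysM cre, with WT levels of 218 and 192 FPKM and knockout levels of 94.3 and 115 FPKM. The part of the Cre insertion itself in the Lyz2 difference was not tested. Cd14 and Lyz2 both differed by at least 1.5-fold inside both numbers, as 6 of the lipid genes did, with adjusted p-values of 0.528 and 0.619 (limma, Benjamini-Hochberg). All 9 adipocyte markers, among them Adipoq, Lep, Plin1, Cidec and Cfd, were listed at 0 in every library. The 9 marrow stroma markers, with Lepr, Pdgfra and Alpl at 0, summed to 12.3 and 2.02 FPKM (WT) and 6.26 and 0 FPKM (knockout). Dendritic cell markers summed to 12.8 and 11.4 FPKM (WT) and 84.4 and 18.2 FPKM (knockout), with 4 of the 5 tested higher without RBP-J inside both numbers. B and T cell markers summed to 19.2 and 6.93 FPKM (WT) and 41.5 and 25.95 FPKM (knockout), the number 2 sums being Cd79b alone. Erythroid markers summed to 5.17 and 11.6 FPKM (WT) and 9.35 and 22.5 FPKM (knockout), the number 2 sums being Epor alone, and 0 of the 2 tested were higher inside both numbers. The replicate numbers differed in several respects. Replicate 1 tables hold genes and replicate 2 tables hold transcripts, Ddx3y measured 193 FPKM (WT) and 174 FPKM (knockout) in number 1 but was listed at 0 in number 2, and Xist was listed at 0 in number 1 but measured 268 FPKM (WT) and 289.93 FPKM (knockout) in number 2. Ddx3y lies on the Y chromosome and Xist is transcribed from the inactive X of females, so sex goes with the replicate number in both groups. The 11 neutrophil markers summed to 7271 FPKM (WT) against 8701 FPKM (knockout) in number 1, and to 298 against 1027 FPKM in number 2, higher without RBP-J inside both. The part of these other cell types in the differences below was not tested. Values are therefore given inside each replicate number as well as over all libraries. In bulk samples, fewer cells of a type and less RNA per cell cannot be told apart. The tables give no counts, so the depth is unknown.

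Most of the 10 lipid genes were lower in RBP-J KO macrophages, with Fabp4 having the smallest p, whereas Apoe was higher. Inside both replicate numbers, 8 of the 10 were lower (Fabp4, Fabp5, Lpl, Pltp, Fasn, Scd1, Scd2 and Plin2), beside 34.1% of the 11851 genes tested. The other two, Apoe and Pparg, were higher inside both, as were 25.1% of all genes. A difference of at least 1.5-fold inside both numbers was found for 6 genes on the lower side (Fabp4, Fabp5, Pltp, Fasn, Scd1 and Plin2; background 3.63%) and for Apoe alone on the higher side (background 3.86%). In a count added after seeing that WT replicate 2 stands apart, inside replicate number 1 taken alone 6 of the 10 were lower by this margin (background 12.1%) and 1 higher (background 10.4%), and inside number 2 there were 7 lower (background 8.18%) and 1 higher (background 6.48%). The median log2 difference of the 10 genes was -1.16 over all libraries, against -0.05 for all genes tested, with -0.65 inside number 1 and -1.58 inside number 2.

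**Figure D1:**
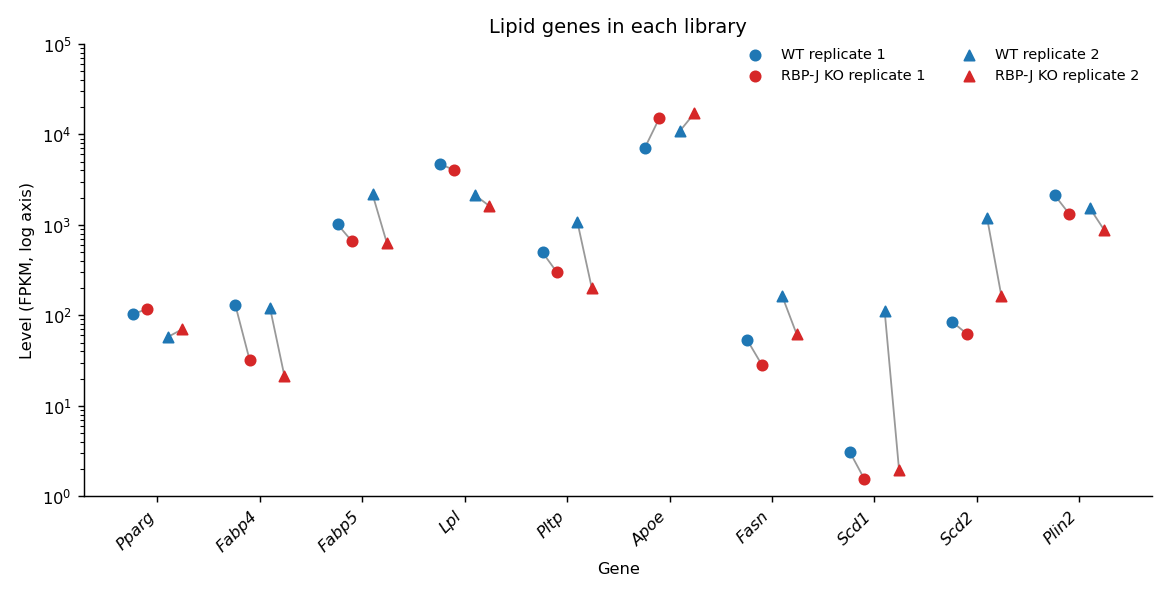
Level of each of the 10 genes in FPKM (log axis) in the 4 libraries; circles are replicate 1 and triangles replicate 2, blue is WT and red is RBP-J KO, and grey lines join libraries of equal number. Fabp4 lies well below WT in both numbers, Apoe lies above it in both, and Scd1 and Scd2 stand far higher in WT replicate 2 than in the other libraries.

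None of these differences passed the test over all genes. In limma with Benjamini-Hochberg adjustment, 0 of 11851 genes had an adjusted p under 0.05 (0%), so 0 of the 10 did, and 524 genes had an unadjusted p under 0.05. Among the 10, Fabp4, Fabp5 and Pltp were lower at an unadjusted p under 0.05 (background 2.24%) and Apoe was higher (background 2.19%). In 5 of the 10 both RBP-J KO libraries lay below both WT libraries (Fabp4, Fabp5, Pltp, Scd1 and Plin2; background 18.2%), and in Apoe both lay above (background 11.7%). Log2 differences and their standard errors (SE) below are on the log2(FPKM + 1) scale from this model, RBP-J KO minus WT, which understates the change of low genes. Counts by 1.5-fold use the same log2(FPKM + 1) scale, while folds quoted for single genes are in FPKM.

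**Figure D2:**
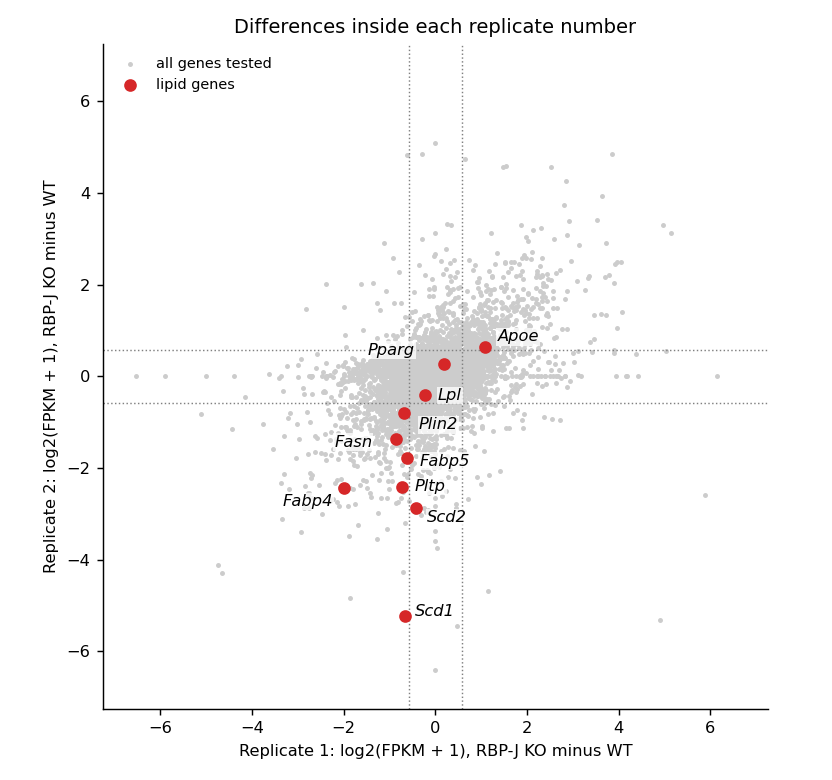
Difference of log2(FPKM + 1), RBP-J KO minus WT, inside replicate number 1 (horizontal) and number 2 (vertical); grey points are the 11851 genes tested, red points the 10 lipid genes, and dotted lines mark 1.5-fold. Fabp4 lies low on both axes, at -1.99 and -2.43, while Scd1, Scd2 and Pltp lie much lower on the vertical axis than on the horizontal one.

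Fabp4 encodes the adipocyte-type fatty acid binding protein, also made by macrophages, and is a classical PPARγ target. It was at 131 and 119.9 FPKM in the 2 WT libraries, against 32.2 and 21.4 FPKM without RBP-J. The WT libraries nearly coincided, and both RBP-J KO libraries lay far below them, 4.07-fold inside number 1 and 5.61-fold inside number 2. Over all libraries the level was 126 ± 8.01 FPKM with RBP-J and 26.8 ± 7.69 FPKM without it (SD, n = 2), a log2 difference of -2.21 (SE 0.27). In limma the unadjusted p was 0.000688 and the Benjamini-Hochberg adjusted p 0.457. By unadjusted p it ranked 15 among the 11851 genes.

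Fabp5, the epidermal-type binding protein and the more abundant of the pair, measured 1010.2 and 2184 FPKM in the WT libraries, against 657 and 632 FPKM in the knockout libraries. The RBP-J KO libraries were close to each other and below both WT libraries, which differed 2.16-fold between themselves. The difference was 1.54-fold inside number 1 and 3.46-fold inside number 2, with a log2 difference of -1.20 (SE 0.41) and an adjusted p of 0.999 (limma, Benjamini-Hochberg). Without WT replicate 2 the log2 difference was -0.65. Mouse Fabp5 has pseudogene copies, and how the authors' counting treated reads shared with them is not given in the sources used here, so its level is uncertain.

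The 10 genes of the fatty acid binding family with an entry include 6 listed at 0 in every library (Fabp1, Fabp2, Fabp6, Fabp9, Fabp12 and Pmp2). The remaining relatives, Fabp3 and Fabp7, were lower in RBP-J KO as well. Fabp3, the heart-type protein, had WT levels of 50.5 and 26.4 FPKM and knockout levels of 11.3 and 4.78 FPKM, 4.45-fold and 5.53-fold lower inside the numbers, with an adjusted p of 0.726 (limma, Benjamini-Hochberg). Its groups did not overlap, and its differences inside the numbers were of much the same size as those of Fabp4. Fabp7, the brain-type protein, measured 385 FPKM (WT) against 169 FPKM (knockout) in number 1 and 19.0 against 3.63 FPKM in number 2, so that the replicate numbers stood further apart than the groups.

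Pparg itself was not lower. It stood at 103 and 57.5 FPKM in WT macrophages, against 117 and 69.9 FPKM without RBP-J, 1.14-fold and 1.22-fold higher inside the numbers. The groups overlapped, and the log2 difference of 0.23 (SE 0.41) was smaller than its error (adjusted p = 0.999, limma with Benjamini-Hochberg). When WT replicate 2 or knockout replicate 1 was left out, the sign turned, with -0.19 and -0.14.

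The replicate 2 tables split Pparg into its 2 main transcripts. NM_001127330 encodes the shorter protein of 475 residues, known as PPARγ1, and NM_011146 starts further downstream and encodes the longer one of 505 residues, PPARγ2, the form typical of fat cells. The shorter form measured 53.4 FPKM (WT) and 67.2 FPKM (knockout), and the longer form 4.10 FPKM (WT) and 2.67 FPKM (knockout). The longer form thus made up 7.13% of Pparg in the WT library and 3.82% in the knockout library, with no replicate, since the replicate 1 tables do not split the gene. The 250 bases upstream of the start of the longer form are shown because they hold a match to the RBP-J site, in capitals, on the strand opposite to the gene (RefSeq, GRCm38.p6, chr6:115421816-115422065, plus strand).
Pparg, longer form: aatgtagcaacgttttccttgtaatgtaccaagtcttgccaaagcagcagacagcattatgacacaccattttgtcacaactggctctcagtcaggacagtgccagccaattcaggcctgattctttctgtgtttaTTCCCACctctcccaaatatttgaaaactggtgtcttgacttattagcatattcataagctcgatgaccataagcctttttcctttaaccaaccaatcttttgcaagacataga

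Of the partner and related receptors, Ppara and Rxrg were listed at 0 in every library. Ppard, the PPAR form found in most tissues, measured 34.8 and 52.7 FPKM in the WT libraries, against 78.0 and 89.9 FPKM in the knockout libraries, with a log2 difference of 0.95 (SE 0.28) and an adjusted p of 0.917 (limma, Benjamini-Hochberg). Rxra, the main RXR partner, had WT levels of 205 and 154 FPKM and knockout levels of 330.1 and 235 FPKM. For both genes the RBP-J KO libraries lay above the WT libraries without overlap. Nr1h3, which encodes LXRα, was at 58.7 FPKM (WT) against 233 FPKM (knockout) in number 1, 3.96-fold higher. In number 2 it was at 10.1 FPKM (WT) against 21.1 FPKM (knockout), 2.10-fold higher. The groups of Nr1h3 overlapped because the replicate numbers differed more than the groups. Nr1h2, which encodes LXRβ, stood at 158 and 218 FPKM in WT macrophages, against 182 and 212 FPKM without RBP-J.

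**Figure D3:**
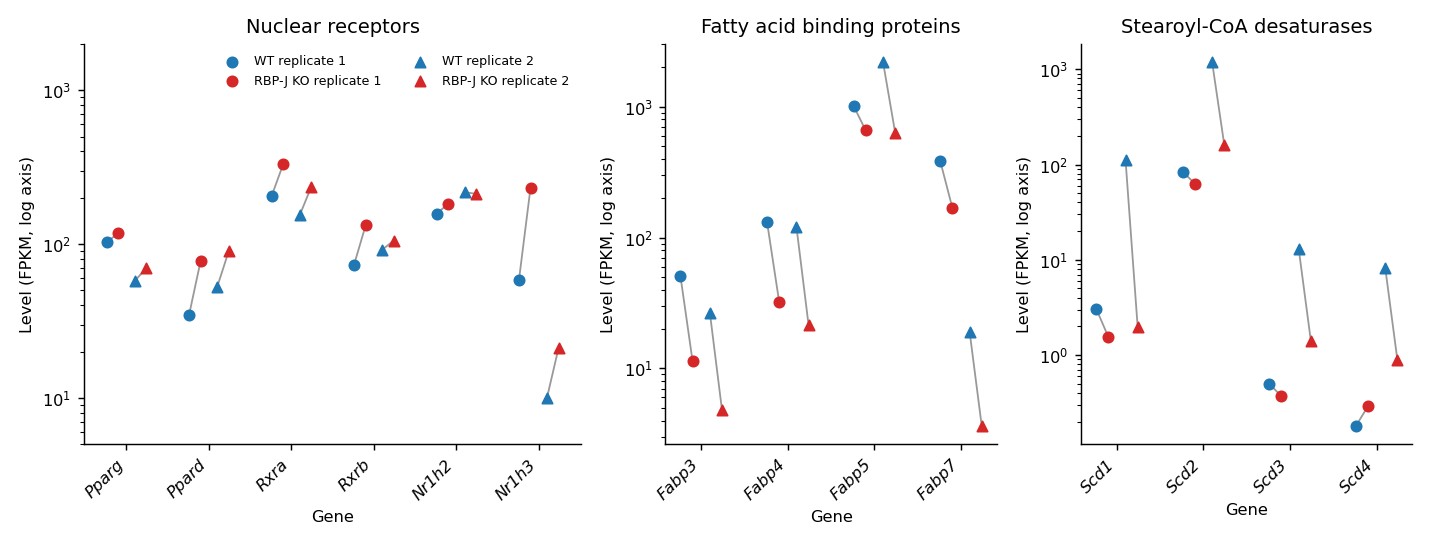
Levels in FPKM (log axes) of nuclear receptors, fatty acid binding proteins and stearoyl-CoA desaturases in the 4 libraries, with symbols and lines as in the plot of the 10 genes by library; genes listed at 0 everywhere are left out. Pparg differs little inside the numbers while Ppard and Rxra lie higher in both, the 4 binding proteins lie lower in both, and all 4 desaturases peak in WT replicate 2.

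The genes of lipoprotein lipid handling did not share a direction. Lpl encodes lipoprotein lipase, which frees fatty acids from circulating triglyceride. It measured 4705 and 2137 FPKM in the WT libraries, against 4025 and 1621 FPKM in the knockout libraries. The replicate numbers stood further apart than the groups, with a 1.17-fold and a 1.32-fold lower value inside the numbers and a log2 difference of -0.31 (SE 0.61). When WT replicate 1 or knockout replicate 2 was left out, its sign turned, with 0.26 and 0.34.

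Pltp encodes the phospholipid transfer protein of plasma lipoproteins. It had WT levels of 495 and 1080 FPKM and knockout levels of 299.97 and 202 FPKM. Both RBP-J KO libraries lay below both WT libraries, 1.65-fold inside number 1 and 5.35-fold inside number 2. The log2 difference was -1.57 (SE 0.45), with an unadjusted p of 0.0208 and an adjusted p of 0.912 (limma, Benjamini-Hochberg). Without WT replicate 2, the highest library, it was -1.01.

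Apoe encodes apolipoprotein E, the lipoprotein component through which macrophages release cholesterol. It stood at 7163 and 10895 FPKM in WT macrophages, against 15134 and 17045 FPKM without RBP-J, and had the highest level of the 10 genes in every library. Both RBP-J KO libraries lay above both WT libraries, by 2.11-fold inside number 1 and 1.56-fold inside number 2. The means were 9029 ± 2639 FPKM (WT) and 16089 ± 1351 FPKM (knockout) (SD, n = 2). The log2 difference was 0.86 (SE 0.31), with an unadjusted p of 0.0434 and an adjusted p of 0.999 (limma, Benjamini-Hochberg). Without WT replicate 1 the log2 difference was 0.56. Under quantile normalization the log2 difference was 0.48 and no longer reached 1.5-fold inside both numbers. The 250 bases upstream of the start of the deposited transcript are shown for the one gene of the 10 with a higher level by 1.5-fold in both numbers (RefSeq, GRCm38.p6, chr7:19699189-19699438, minus strand). They hold no match to the RBP-J letters searched, so nothing is in capitals.
Apoe: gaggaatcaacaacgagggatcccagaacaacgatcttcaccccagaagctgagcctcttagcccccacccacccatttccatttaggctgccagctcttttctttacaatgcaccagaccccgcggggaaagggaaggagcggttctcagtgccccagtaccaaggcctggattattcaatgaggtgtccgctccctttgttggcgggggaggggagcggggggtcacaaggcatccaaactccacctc
Apoc2, the activator of lipoprotein lipase encoded beside Apoe, was at 25.9 FPKM (WT) against 49.9 FPKM (knockout) in number 1 and 72.2 against 62.3 FPKM in number 2, without a shared direction. Apoc1 and Apoc4 of the same gene cluster, chosen after their values were seen, were listed at 0 in every library.

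Of the synthesis and desaturation genes among the 10, Fasn, Scd1 and Scd2 were each lower inside both numbers, by more in number 2. Fasn encodes fatty acid synthase, which makes palmitate. It measured 52.9 and 163 FPKM in the WT libraries, against 28.5 and 62.2 FPKM in the knockout libraries, 1.86-fold and 2.62-fold lower inside the numbers. The groups overlapped, since RBP-J KO replicate 2 lay above WT replicate 1, and the log2 difference was -1.12 (SE 0.67) over all libraries. It was -0.32 without WT replicate 2, -0.57 without knockout replicate 1 and -1.92 without WT replicate 1.

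Scd1 and Scd2 encode stearoyl-CoA desaturases, which place the double bond of oleic and palmitoleic acid. Scd1 had WT levels of 3.08 and 111 FPKM and knockout levels of 1.56 and 1.97 FPKM, so that WT replicate 2 alone was high. The WT libraries differed 36-fold and the RBP-J KO libraries 1.26-fold. Scd1 was 1.97-fold lower inside number 1, at levels near the pseudocount, and 56.2-fold lower inside number 2. The log2 difference of -2.95 had an SE of 1.62 and an adjusted p of 0.999 (limma, Benjamini-Hochberg), and without WT replicate 2 it was -0.57.

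Scd2, the more abundant form in these cells, stood at 84.4 and 1186 FPKM in WT macrophages, against 62.9 and 162 FPKM without RBP-J. It was 1.34-fold lower inside number 1 and 7.33-fold lower inside number 2, and the groups overlapped. The log2 difference was -1.64 (SE 1.35), and without WT replicate 2 it turned to 0.26. The minor desaturases Scd3 and Scd4, neighbours of Scd1 and Scd2 in the genome and chosen after their values were seen, were also highest in WT replicate 2. Scd3 was at 0.50, 0.37, 13.0 and 1.42 FPKM and Scd4 at 0.18, 0.29, 8.18 and 0.89 FPKM, in the order WT then knockout of number 1, WT then knockout of number 2. These 4 genes are similar in sequence, and how shared reads were split is not given in the sources used here.

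Plin2 encodes perilipin 2, the coat protein of lipid droplets in macrophages. It measured 2126 and 1548 FPKM in the WT libraries, against 1329 and 887 FPKM in the knockout libraries. Both RBP-J KO libraries lay below both WT libraries, and the size was alike in the numbers, 1.60-fold and 1.74-fold. The log2 difference was -0.74 (SE 0.30), with an unadjusted p of 0.0643 and an adjusted p of 0.999 (limma, Benjamini-Hochberg). Without knockout replicate 2 the log2 difference was -0.45. Of the other perilipins, Plin3 had WT levels of 237 and 324 FPKM and knockout levels of 199 and 185 FPKM, Plin1 and Plin5 were listed at 0, and Plin4 did not exceed 0.08 FPKM. The 250 bases upstream of the Plin2 start are shown because they hold the longest match to the RBP-J site among the windows of these genes, in capitals, on the strand opposite to the gene (RefSeq, GRCm38.p6, chr4:86670060-86670309, minus strand).
Plin2: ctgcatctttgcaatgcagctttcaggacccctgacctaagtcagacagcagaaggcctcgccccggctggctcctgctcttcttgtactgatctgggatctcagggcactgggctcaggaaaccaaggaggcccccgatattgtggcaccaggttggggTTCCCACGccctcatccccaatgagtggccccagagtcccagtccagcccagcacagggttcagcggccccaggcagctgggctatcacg

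Promoter windows of 250 bases before the start were found in the RefSeq table for 5 of the 10 genes (Pltp, Plin2, Pparg, Apoe and Fasn, 9 windows), and letters were searched on both strands. The RBP-J core TGGGAA was in 2 of the 9 windows and in 21.6% of all 32851. The longer GTGGGAA, which contains it, was in the same 2 windows, Plin2 and the longer form of Pparg, and in 5.42% of all. The full CGTGGGAA was in Plin2, between 90 and 83 bases before the start, and in 0.636% of all windows. In the Pparg window GTGGGAA lay between 114 and 108 bases before the start. The direct repeat bound by PPAR with RXR and the SREBP element TCACNCCAC were in 0 of the 9 windows, against 0.0335% and 1.05% of all. With shares this low, 0 of 9 windows says little about these genes. The single nuclear receptor element AGGTCA was in 3 of the 9, 1 of Plin2 and 2 of Pparg, against 14.0% of all. Also searched were the E-box CACGTG, in 0 of the 9 and 6.02% of all, and the NF-Y box CCAAT. The latter was in 5 of the 9, of Pltp, Plin2, Pparg and Fasn, against 33.8% of all. Such matches are descriptions of letters, and binding was not measured.

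Lists of other genes of the same pathways, 191 genes in 11 lists, gave 182 entries and 120 genes tested. In limma with Benjamini-Hochberg adjustment 0 passed, the smallest adjusted p being 0.726. Of the 120 tested, 6 lower genes (background 2.24%) and 1 higher gene (background 2.19%) had an unadjusted p under 0.05. By at least 1.5-fold inside both numbers 13 were lower (10.8%, background 3.63%) and 4 higher (3.33%, background 3.86%), with a median log2 difference of -0.12. The lower genes included transport and desaturation enzymes, and the higher ones were Nr1h3, Ppard, Rxra and Sorl1.

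Fatty acid uptake and oxidation was the longest list, with 31 genes tested, of which 4 were lower and 0 higher by 1.5-fold in both numbers (median log2 difference -0.18). Cd36, the scavenger receptor that takes up fatty acids and oxidised lipoproteins, stood at 5448 and 5231 FPKM in WT macrophages, against 1571 and 3044 FPKM without RBP-J, 3.47-fold and 1.72-fold lower. The WT libraries were close to each other, and the RBP-J KO libraries lay below them (adjusted p = 0.912, limma with Benjamini-Hochberg). Slc27a1, a fatty acid transport protein of the plasma membrane, measured 393 and 277 FPKM in the WT libraries, against 230.4 and 139 FPKM in the knockout libraries. Acadl, the long-chain acyl-CoA dehydrogenase of mitochondria, was 1.82-fold and 1.37-fold lower, and Ehhadh, a peroxisomal enzyme of the same pathway, 2.10-fold and 1.91-fold. The list of PPAR targets shares Cd36 and Acadl with this list and had 2 of 12 tested lower and 0 higher by 1.5-fold in both numbers (median -0.15).

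In the list of fatty acid synthesis, elongation and desaturation, 3 of 20 tested were lower and 0 higher by 1.5-fold in both numbers (median -0.38, with -0.14 inside number 1 and -0.81 inside number 2). Fads3, a desaturase relative, had WT levels of 16.7 and 20.7 FPKM and knockout levels of 6.22 and 8.36 FPKM. Me1, the malic enzyme that supplies reducing power for fatty acid synthesis, stood at 63.2 and 50.1 FPKM in WT macrophages, against 33.1 and 25.01 FPKM without RBP-J. In both genes the groups were well separated and the 2 numbers gave nearly the same fold. Fads2, which starts the making of polyunsaturated fatty acids, measured 36.1 FPKM (WT) against 22.5 FPKM (knockout) in number 1 and 317 against 33.7 FPKM in number 2, with the same high WT replicate 2 as Scd1. Acaca, which makes malonyl-CoA, was 1.29-fold and 1.71-fold lower, and Fads1 1.11-fold and 1.85-fold. At any size, 12 of the 20 were lower and 1 higher inside both numbers, and 7 had no shared direction. Among these 7, Acss2 was 3.21-fold higher inside number 1 and 2.19-fold lower inside number 2.

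**Figure D4:**
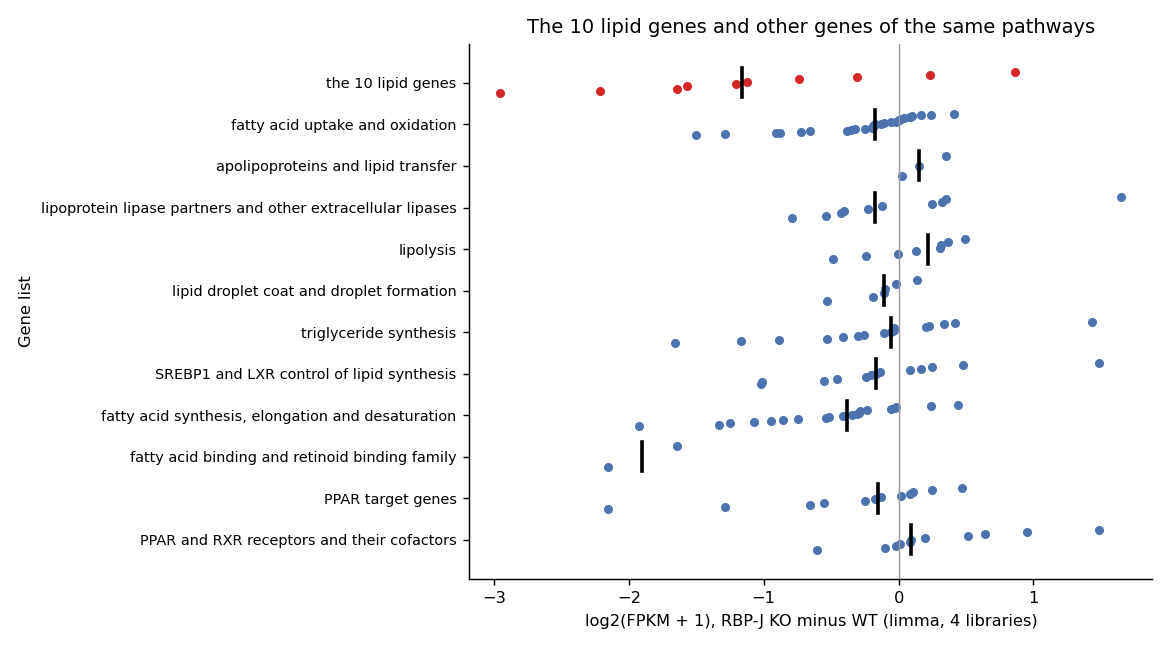
Log2 difference of each gene tested, RBP-J KO minus WT on the log2(FPKM + 1) scale, for the 10 lipid genes (red) and for 11 lists of other genes of the same pathways (blue); black bars are medians. The 10 genes have a median of -1.16, whereas 10 of the 11 lists have medians between -0.38 and 0.22 and the list of binding proteins, with 2 genes tested, lies at -1.90 (between -3.47 and -0.33 when 1 library is left out).

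The other lists had medians between -0.17 and 0.22, against -0.05 for all genes. The SREBP1 and LXR control genes (13 tested) had a median of -0.16, with 0.21 inside number 1 and -0.28 inside number 2. Among them Mid1ip1, an activator of acetyl-CoA carboxylase, was 2.06-fold and 2.01-fold lower, and Nr1h3 was the 1 gene higher by 1.5-fold in both numbers. Srebf2, the sterol-regulated factor, measured 231 and 384 FPKM in the WT libraries, against 203 and 232 FPKM in the knockout libraries. Lpcat3, an enzyme that loads polyunsaturated fatty acids into phospholipids, was 1.06-fold and 2.03-fold lower, and Abcg1, a cholesterol exporter, was 2.05-fold higher inside number 1 and 1.05-fold lower inside number 2.

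Triglyceride synthesis had 3 of 17 tested lower and 0 higher by 1.5-fold in both numbers, with a median of -0.05 that became 0.00143 under upper-quartile scaling. Agpat9, an acyltransferase of the first step, had WT levels of 3.01 and 2.82 FPKM and knockout levels of 1.29 and 0.95 FPKM, and Ppap2b, a lipid phosphate phosphatase, was 2.36-fold and 3.31-fold lower. Soat2, a cholesterol esterifying enzyme, had WT levels of 0.81 and 1.66 FPKM and knockout levels of 10 and 2.21 FPKM. Lipid droplet coat genes (6 tested, median -0.11) and lipolysis genes (8 tested, median 0.22) had 0 genes at 1.5-fold in both numbers. The lipolysis median was 0.03 without knockout replicate 1, 0.05 without WT replicate 2 and 0.06 at a minimum mean of 5 FPKM. Pnpla2, the first lipase of droplet breakdown, stood at 136 and 149 FPKM in WT macrophages, against 222 and 182 FPKM without RBP-J, on the opposite side to Plin2. Lipe, the hormone-sensitive lipase, had WT levels of 34.7 and 38.9 FPKM and knockout levels of 58.2 and 39.1 FPKM. Lipolysis genes did not share a direction: at any size, 4 of the 8 were higher and 2 lower inside both numbers. The lower ones were Nceh1, 1.38-fold and 1.42-fold lower, and Abhd5, 1.23-fold and 1.14-fold lower.

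Lipoprotein lipase partners and other extracellular lipases had a median of -0.17 over 10 genes tested, with 0 lower and 1 higher by 1.5-fold in both numbers. That gene was Sorl1, a sorting receptor that binds lipoprotein lipase and apolipoprotein E, with WT levels of 20.5 and 7.95 FPKM and knockout levels of 68.8 and 26.2 FPKM, 3.36-fold and 3.30-fold higher. Of the apolipoproteins and lipid transfer genes outside the 10, 3 of 15 were tested, with a median of 0.15 (0.72 inside number 1 and -0.21 inside number 2). PPAR and RXR receptors and their cofactors (11 tested, median 0.09) had 0 lower and 3 higher by 1.5-fold in both numbers, the 3 being Nr1h3, Ppard and Rxra. The cofactor Ppargc1b had WT levels of 4.14 and 3.96 FPKM and knockout levels of 2.19 and 2.44 FPKM. In FPKM it was 1.89-fold and 1.62-fold lower. On the log2(FPKM + 1) scale used for the count its differences were -0.69 and -0.53, the last short of the margin.

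The genes most like each of the 7 lipid genes with a 1.5-fold difference in both numbers were found by the distance between centred log2(FPKM + 1) profiles over the 4 libraries, among 9010 other genes whose mean reached 20 FPKM. Nearest to Fabp4 were Cbr2, Eps8 and Rgs18, at distances of 0.33, 0.51 and 0.57. Cbr2, a carbonyl reductase, measured 428 and 471 FPKM in the WT libraries, against 100.2 and 87.7 FPKM in the knockout libraries. Nearest to Plin2 were Wdr91, Tulp4 and Myadm, at 0.03, 0.07 and 0.11, and nearest to Apoe were 2410006H16Rik, Sesn2 and Ppard, at 0.07, 0.07 and 0.09. Fabp5 had 2610034B18Rik, Hsd17b7 and Ifitm6 nearest, and Pltp had Papss2, Alox5 and Fabp5 itself. Fasn had Mcoln2, Ralgds and Mid1ip1. Scd1 had no close match: its nearest gene, Pcp2, lay at 1.20 and was at 84.3 FPKM in WT replicate 2 and listed at 0 in the other libraries. Fads2 and Mt2, a metallothionein, followed at 1.59 and 1.65, and both also had their highest value in WT replicate 2. With 4 libraries such distances are descriptions only.

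Per length, Apoe led the 10 genes in all 4 libraries, and Scd1 was the lowest in 3 of them, the exception being WT replicate 2, where Pparg was lowest. Lpl stood at rank 2 in 3 libraries and rank 3 in WT replicate 2, behind Fabp5. Fabp4 held ranks 6 and 8 among the WT libraries and ranks 8 and 9 among the knockout libraries. Pparg lay below Fabp4 in both WT libraries and above it in both RBP-J KO libraries. The neighbours Fabp4 and Pparg in WT replicate 1 (131 and 103 FPKM) differed by less than Pparg differed between the WT libraries.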

How the data were processed

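Sequencing of RNA covered 4 macrophage libraries, grouped by title. The submitters' processing notes name TopHat, Cufflinks and the mm9 build, without versions. The deposited values were read as FPKM, the unit Cufflinks writes, although the headers name no unit. Transcripts of replicate 2 were summed per symbol, and 25 symbols turned into dates were restored. Values were tested as log2(FPKM + 1) for 11851 genes whose mean reached 1 FPKM, in R 4.3.3 with limma 3.58.1 (group as the only term, variance trend, two-sided, Benjamini-Hochberg over all genes, threshold 0.05), and the procedure was tested on simulated data. Figures used Python 3.11.15 and matplotlib 3.10.9. No count model was used. The 10 genes and the lists were chosen with earlier results of these data known. Named besides the 10 were up to 4 genes per pathway list with the smallest p, the 3 nearest profiles, Rbpj, Ddx3y and Xist; other names, such as Nr1h3, Fads2, Scd3, Scd4, Fabp7 and Mir5114, were picked with their values in view. Alternatives varied the pseudocount, filter, scaling, transcript choice, trend, replicate block and library left out. Promoter letters are from RefSeq windows of GRCm38.p6, and no position was converted between builds. One gene of the pathway lists is not reported here by name.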

Additional observations from a re-analysis of the deposited data

How the results depend on the processing

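Under every alternative run, 0 of the genes tested and 0 of the 10 lipid genes passed the adjusted threshold in limma, with 307 to 1557 genes at an unadjusted p under 0.05. Fabp4, Fabp5, Pltp, Fasn, Scd1, Plin2 and Apoe kept their sign under all 13 alternatives. Leaving out 1 library at a time, the median log2 difference of the 10 genes ranged from -1.84 to -0.61, that of Lpl from -0.97 to 0.34, that of Pparg from -0.19 to 0.65 and that of Scd2 from -3.54 to 0.26; that of Fabp4 ranged from -2.50 to -1.93. The medians of 4 lists also took both signs: receptors and cofactors from -0.16 to 0.31, PPAR targets from -0.32 to 0.02, SREBP1 and LXR control genes from -0.21 to 0.06 and apolipoproteins from -0.07 to 0.20. Without a sign change, the binding protein median ranged from -3.47 to -0.33 (-1.26 with a pseudocount of 10) and the lipolysis median from 0.03 to 0.22. These spans follow from the spread between the 2 libraries of a group, and a lone library was assumed to vary like the other group. With quantile normalization 0 of the 10 genes, against 1, were higher by 1.5-fold in both numbers. The count lower by that margin was 5, against 6, under quantile normalization, upper-quartile scaling and a pseudocount of 10. With a pseudocount of 10 the pathway lists held 7 lower genes of that size, against 13. No label says that a replicate number marks a shared mouse or day, and with 2 pairs the deviations of same-numbered libraries (r = 0.64 across 11851 genes) cannot settle it. With the replicate number as a block 1557 genes, against 524, had an unadjusted p under 0.05, and 0 passed adjustment. Of the 10 lipid genes 6, against 4, then had an unadjusted p under 0.05, the added ones being Fasn (0.162 without the block, 0.00402 with it) and Plin2 (0.0643 and 0.00426), with adjusted p-values of 0.140 and 0.144 in limma. The log2 differences stayed as they were, and Fabp4 had an adjusted p of 0.0665, the lowest of 0.0665 to 1 over its alternatives. FPKM without counts give no depth, so low values such as those of Scd1 in replicate 1 have a counting error that is not known.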

Other observations

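The tables hold Mir5114, a microRNA gene name that RefSeq lists as a synonym of Scd2, as an entry of its own. It was listed at 0 in both replicate 1 libraries, at 844 FPKM in WT replicate 2 and at 81 FPKM in RBP-J KO replicate 2, the same order as Scd2 in number 2. How reads shared by the 2 entries were counted is not known here.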
